A study of Oryza sativa with 6 samples.

Results

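The cytokinin response regulators of rice are described here through 10 probe sets, picked by their identifiers on the Affymetrix rice genome array, out of 57258 probe sets without controls. Of these, 6 measure the type-A genes RR1, RR2, RR4, RR5, RR6 and RR9, and 4 measure the type-B genes ORR1, ORR2, ORR3 and ORR4, which the gene table also lists as RR21, RR22, RR23 and RR24. Each gene had 1 probe set in the annotation used, so no second probe set checks a value. All 6 arrays entered: 3 biological replicates of wild type seedlings and 3 of Epi-df seedlings, both of the japonica type, 3 weeks old and grown in artificial soil without any treatment. Epi-df is known as a dwarf rice line in which FIE1, a Polycomb group gene normally confined to endosperm, is active through an epigenetic change. It is 1 line, and the labels do not say how many plants went into a sample.

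Cytokinins are adenine-derived hormones that promote cell division in shoots and restrain root growth. They bind histidine kinase receptors, which pass a phosphate through phosphotransfer proteins to the response regulators in the nucleus. Type-B regulators carry a DNA-binding domain and switch on target genes, while type-A regulators hold little more than the phosphate-receiving domain. Type-A genes are themselves early targets of the type-B factors and damp the pathway, so their transcript level is widely used as a readout of cytokinin response.

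The arrays were alike in overall level, with median intensities between 108.1 and 114.5. Correlations of log2 values over the tested probe sets, which are not independent replicates, lay between 0.980 and 0.991 for arrays of the same line and between 0.966 and 0.986 for arrays of different lines. Epi-df replicate 3 lay at least 2-fold under all other arrays in 36 of 34355 tested probe sets and at least 2-fold above them in 66. For wild type replicate 1 these counts were 0 and 52, for Epi-df replicate 2 they were 81 and 5, and no other array passed 16 in either direction.

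The type-A gene RR9 showed the widest difference between the lines. The wild type arrays read 1526, 1566 and 1596, against 1094, 896 and 329 in Epi-df. Every Epi-df array lay below every wild type array, and Epi-df replicate 3 stood far below the other two. Type-B ORR4 was likewise lower in all Epi-df arrays, by less, and type-B ORR3 was higher in all of them. None of the 10 genes changed by the call rule of an adjusted p under 0.05 and at least 2-fold (limma, two-sided, Benjamini-Hochberg over all tested probe sets), a rule that 0.608% of all tested probe sets met. At an adjusted p under 0.05 with no fold threshold the count was also 0, against 1.80% of all. At an unadjusted limma p under 0.05 it was 3 of 10 (RR9, ORR3 and ORR4), against 14.4% of all.

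**Figure D1:**
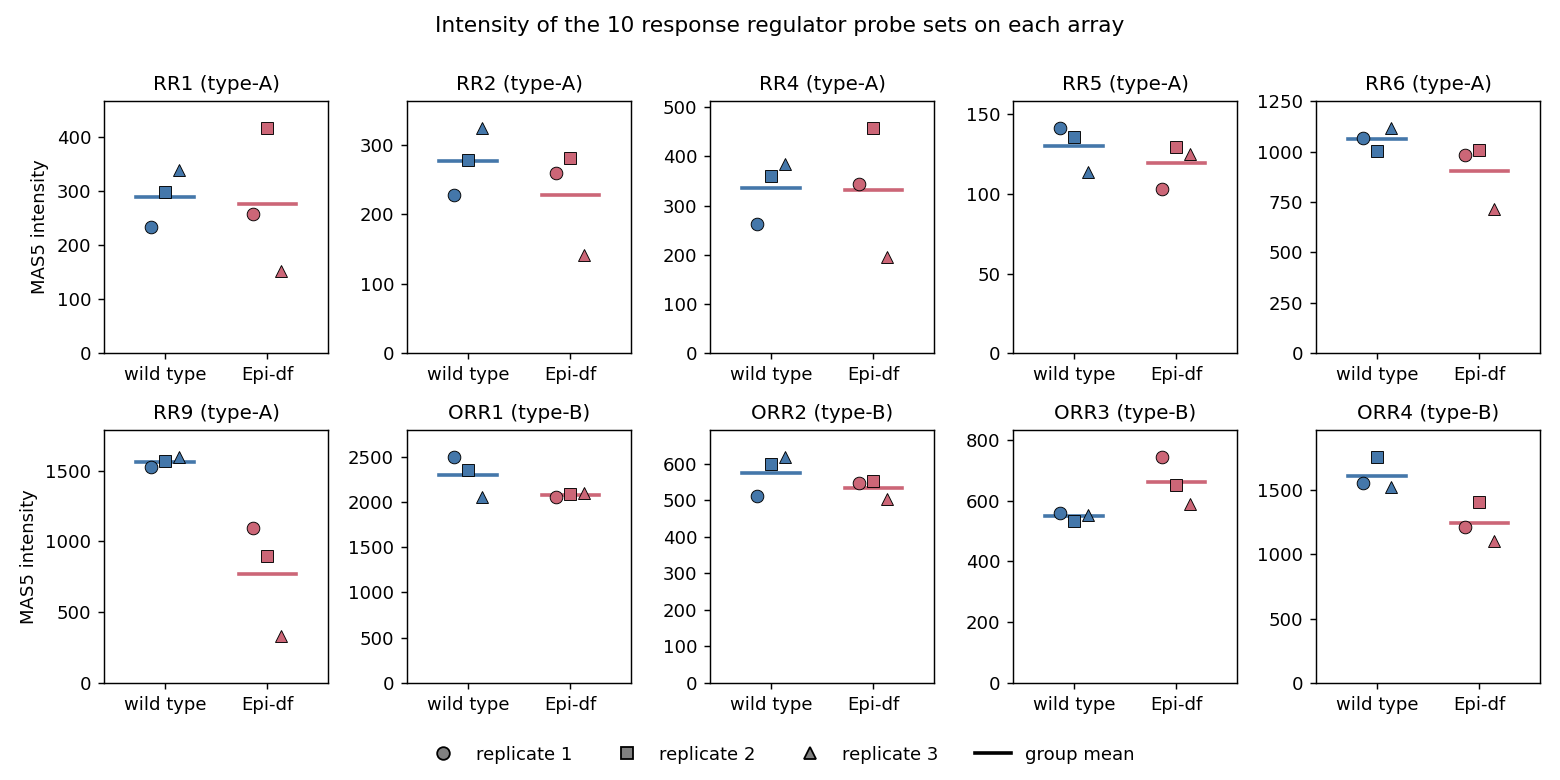
MAS5 intensity (y axis, linear, from 0, a scale of its own in each panel) of the 10 probe sets in 3 wild type arrays (blue) and 3 Epi-df arrays (red); symbols mark the replicate number and bars the group mean. RR9 is the panel with the widest gap, and the Epi-df triangle (replicate 3) is the lowest point for RR1, RR2, RR4, RR6, RR9, ORR2 and ORR4.

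Among the 10 genes, 9 had a log2 change below 0 in Epi-df, a sign that 46.1% of all tested probe sets shared. The median log2 change was -0.15 over the 10 genes, -0.20 over the type-A genes and -0.12 over the type-B genes, against 0.01 over all tested probe sets. With Epi-df replicate 2 left out the type-A median was -0.41, and the median of all 10 genes -0.34. Dropping Epi-df replicate 3 instead gave -0.056 and -0.076. The groups did not overlap for 3 genes, as for 19.6% of all tested probe sets. RR9 and ORR4 were lower without overlap (9.76% of all) and ORR3 higher (9.81% of all). For 9 genes the 95% limma interval of the change lay inside 2-fold either way, and RR9 was the exception, with an interval from -2.06 to -0.27 on the log2 scale.

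RR9 is a type-A gene of a close pair with RR10. The pair is known from work on salt tolerance, and its members are near-identical copies, so RR10 transcripts may add to this signal. RR10 had no probe set of its own in the annotation used. Means were 1562 ± 35.0 for wild type and 773 ± 397 for Epi-df (SD, n = 3 each). The wild type arrays were close together, with a log2 SD that ranked at the 7.43 percentile of all tested probe sets, while the SD of the Epi-df arrays ranked at the 99.6 percentile. The log2 change was -1.16 ± 0.39 (SE, limma adjusted p = 0.210), on the log2(intensity + 16) scale used for all changes here, which understates changes of dim probe sets. Epi-df replicate 3 was 2.72-fold below the next lowest array, Epi-df replicate 2. Without it the log2 change was -0.65 ± 0.10, smaller than 2-fold, with limma adjusted p = 0.0409. Dropping any other array gave changes between -1.49 (Epi-df replicate 1 dropped) and -1.15 (wild type replicate 3 dropped), with limma adjusted p from 0.135 to 0.471. In these seedling samples fewer cells that express a gene and less RNA per cell cannot be told apart.

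RR1, RR2 and RR4 varied from array to array in a shared way. RR1 is known as a gene induced by the crown root regulator CRL5. It was at 235, 298 and 339 in wild type and at 258, 418 and 152 in Epi-df. The groups overlapped fully, with both the highest and the lowest array in Epi-df. RR2, which the crown root factor WOX11 is known to repress, was at 227, 278 and 325 in wild type and 259.7, 281 and 141 in Epi-df. For RR4, measured by a probe set of the shared type (suffix _s_at), the values were 262, 361 and 385 in wild type and 344, 459 and 196 in Epi-df. In all 3 genes Epi-df replicate 3 was the lowest of the 6 arrays and wild type replicate 1 the lowest wild type array.

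The log2 changes of these 3 genes were small beside that spread. They were -0.16 ± 0.32 for RR1 (limma adjusted p = 0.894), -0.31 ± 0.25 for RR2 (limma adjusted p = 0.674) and -0.07 ± 0.29 for RR4 (limma adjusted p = 0.949). Without Epi-df replicate 3 the sign turned for RR1, to 0.19, and for RR4, to 0.25, and RR2 came to -0.02. Without Epi-df replicate 2 they were -0.50, -0.48 and -0.33. RR4 was also above 0, at 0.03, without wild type replicate 3. A direction therefore could not be given for RR1 or RR4. The spread was wide in wild type too: their log2 SD over the 3 wild type arrays ranked at the 93.5, 92.6 and 95.1 percentile of all tested probe sets, and over the Epi-df arrays at the 98.9, 97.4 and 98.3 percentile.

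RR6 and RR5 varied less. RR6, whose overexpression is known to make rice dwarfed and less sensitive to cytokinin, was at 1066, 1005 and 1119 in wild type and at 981, 1009.8 and 716 in Epi-df. Epi-df replicate 2 overlapped the wild type range, and Epi-df replicate 3 was again the lowest. The log2 change of RR6 was -0.25 ± 0.14 (limma adjusted p = 0.492). Leaving out Epi-df replicate 3 brought it to -0.09. RR5 was at 142, 136 and 113.5 in wild type and 103, 129 and 125 in Epi-df, not far above the intensity of 80.5 at which the filter on low values lay. It was the 1 type-A gene whose lowest array was not Epi-df replicate 3, and its log2 change was -0.11 ± 0.11 (limma adjusted p = 0.749). It came to -0.20 when wild type replicate 3 was dropped and to -0.027 when Epi-df replicate 1 was.

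Seen across the type-A genes, Epi-df replicate 3 was the lowest array for 5 of 6. It was the lowest for 7 of all 10 genes, and for 15.97% of all tested probe sets. The mean log2 difference of the 6 type-A genes from the wild type mean was -0.88 in this array, -0.18 in Epi-df replicate 1 and 0.02 in Epi-df replicate 2. In the wild type arrays it was -0.13, 0.03 and 0.10. For the 4 type-B genes the same array stood at -0.19, and the others between -0.05 and 0.04. Relative to the wild type mean, intensity in Epi-df replicate 3 was lower by a factor of 4.75 for RR9, 1.96 for RR2, 1.91 for RR1, 1.72 for RR4 and 1.49 for RR6. For RR5 the factor was 1.04.

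**Figure D2:**
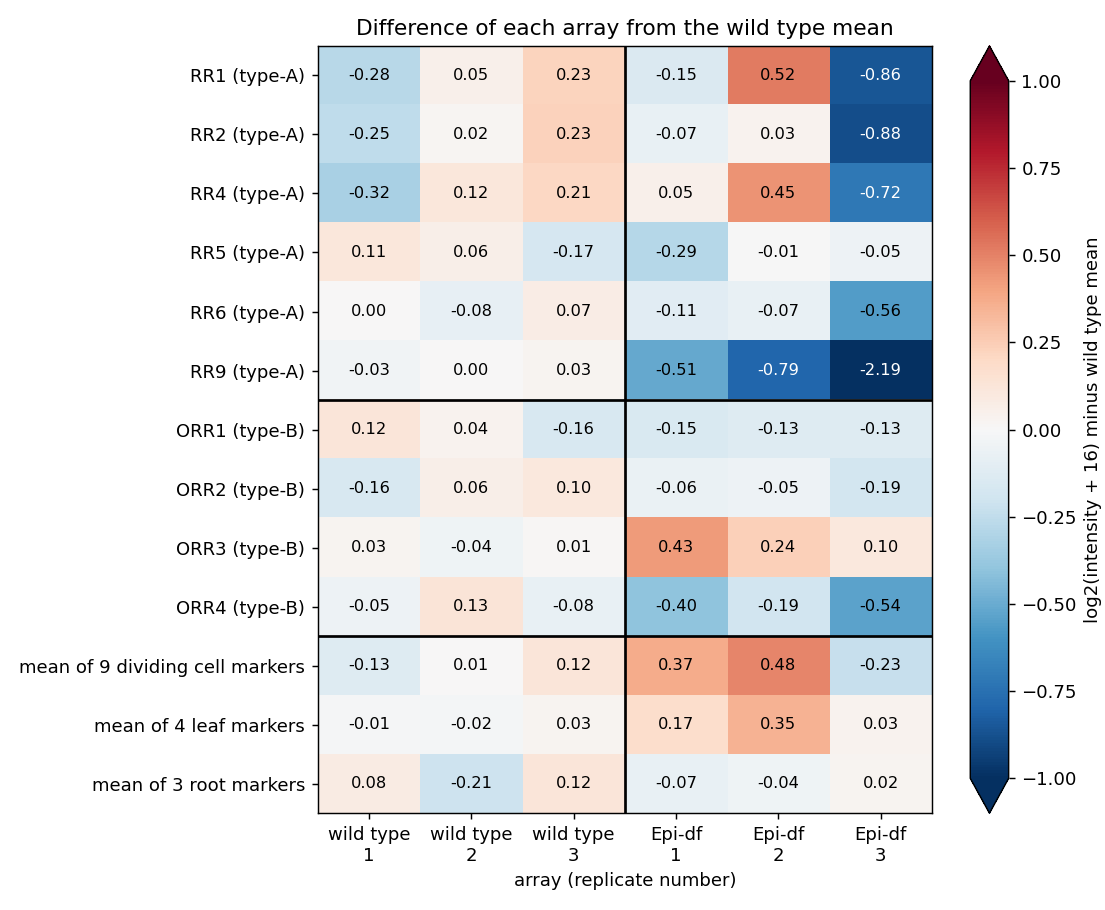
Difference of log2(intensity + 16) from the mean of the 3 wild type arrays, for each gene (rows) on each array (columns), with the mean over 3 marker lists in the bottom rows; colours saturate at 1 either way and the numbers give the values. The Epi-df replicate 3 column holds the lowest values of RR1 (-0.86), RR2 (-0.88), RR4 (-0.72), RR6 (-0.56) and RR9 (-2.19).

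The type-B genes varied less than 4 of the type-A genes, with log2 SDs over the 6 arrays of 0.12 to 0.24, against 0.39 to 0.86 for the type-A genes RR1, RR2, RR4 and RR9. The type-A genes RR5 and RR6, at 0.15 and 0.22, lay within the type-B range. ORR4, the type-B gene also called RR24 and known from its role in early meiosis, was at 1557, 1756 and 1524 in wild type and at 1214, 1408 and 1103 in Epi-df. All Epi-df arrays were below all wild type arrays. Means were 1612 ± 126 and 1242 ± 154 (SD, n = 3), which gave a log2 difference of -0.38 ± 0.11 (limma adjusted p = 0.154). In the fits that left out 1 array the change lay between -0.47 and -0.30, the limma adjusted p was 0.0791 to 0.395, and the sign held in all 6 fits.

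ORR3, also called RR23, was the 1 member with a log2 change above 0. Its values were 559.95, 532 and 554 in wild type and 743, 651 and 590.02 in Epi-df. The wild type arrays lay close together and the Epi-df arrays were spread above them. The means were 549 ± 14.6 and 661 ± 76.9 (SD, n = 3), which gave a log2 difference of 0.26 ± 0.10 (limma adjusted p = 0.298). It ranged from 0.17 (Epi-df replicate 1 left out) to 0.33 (Epi-df replicate 3 left out, limma adjusted p = 0.153 to 0.562).

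ORR1 and ORR2, also called RR21 and RR22, had the smallest log2 changes of the 4 type-B genes. Together with RR23, RR21 is known from mutant plants as a transmitter of the cytokinin response, and RR22 is known for the salt tolerance of its mutant. ORR1 was at 2496, 2353 and 2052 in wild type and 2059, 2090.1 and 2099 in Epi-df. The Epi-df arrays were nearly equal, within the wild type range, and their log2 SD of 0.01 ranked at the 1.10 percentile of all tested probe sets. ORR2 was at 511, 598 and 618 in wild type and at 548, 552 and 503 in Epi-df, with overlap. The log2 changes were -0.14 ± 0.09 for ORR1 and -0.10 ± 0.10 for ORR2 (limma adjusted p = 0.571 and 0.748). Their 95% intervals, -0.34 to 0.07 and -0.33 to 0.13, both span 0. When 1 array was left out, the change of ORR1 ranged from -0.22 (wild type replicate 3 left out) to -0.077 (wild type replicate 1 left out), and that of ORR2 from -0.18 to -0.049 with the same arrays in the opposite order.

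**Figure D3:**
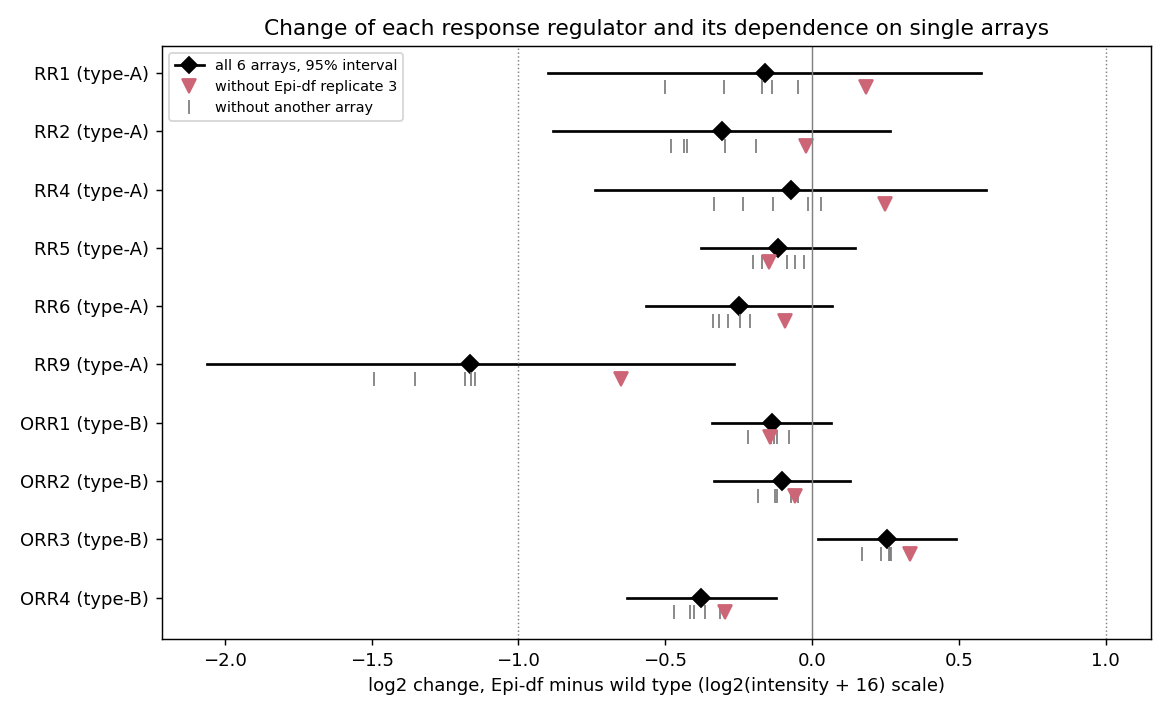
Log2 change of each gene, Epi-df minus wild type (x axis), from the fit of all 6 arrays (diamonds, bars are 95% limma intervals) and from the fits that each left out 1 array (marks under each diamond). Leaving out Epi-df replicate 3 (red triangles) moves RR9 from -1.16 to -0.65, carries RR1 and RR4 across 0 and moves the type-B genes little; dotted lines mark 2-fold.

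How alike the genes ran over the 6 arrays was measured by the root mean square difference of their mean-centred log2 values. RR1 and RR4 differed by 0.10, RR2 and RR4 by 0.16 and RR1 and RR2 by 0.19. RR4 was the nearest of all tested probe sets to RR1. The RR4 probe set is of the shared type, and whether it also measures RR1 or RR2 transcripts was not tested. Among 2674 tested probe sets with a gene name, the next nearest to RR1 after RR4 and RR2 were those of NYC1 (0.19), a chlorophyll b reductase gene, the protein kinase gene CIPK5 (0.19) and the D-type cyclin gene CYCD3-1 (0.21). RR9 ran apart from every other member, with 0.51 to RR2 as its nearest and 0.84 to ORR3 as its farthest. The named genes nearest to RR9 were 4CL2 (0.22), a 4-coumarate CoA ligase gene, and TPP1 (0.33), a trehalose phosphate phosphatase gene. CYP88A5 (0.33), the kaurenoic acid oxidase gene KAO of gibberellin synthesis, FIL1 (0.35), also named YABBY1, and CBF3 (0.36), the cold response gene DREB1A, followed. Of these 5, FIL1 and CBF3 were called, with log2 changes of -1.09 and -1.16 (limma adjusted p = 0.0349 and 0.0296). Over all tested probe sets 0.608% were called, but these 5 were picked for values like those of RR9. 4CL2 was at 665, 699 and 692 in wild type and 418, 409 and 205 in Epi-df. It had no overlap and its lowest value in Epi-df replicate 3, as RR9 did, which follows from how it was picked.

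The other genes of the cytokinin pathway with a probe set had no call. Of 22 genes with a probe set, 20 passed the filter on low values. Of these, 7 had a log2 change below 0, as did 46.1% of all tested probe sets, and 13 above, with a median of 0.04. Groups did not overlap for 5 of the 20 (19.6% of all tested probe sets). The same 5 had an unadjusted limma p under 0.05 (14.4% of all). Genes of the LOG family, whose enzymes release the active cytokinin base, held 4 of these and went both ways. All 8 synthesis genes with a probe set were of this family, so the IPT and CYP735A genes searched for were not covered. LOGL3 was at 683, 870.4 and 436 in wild type and at 270.4, 323 and 385 in Epi-df. All its Epi-df arrays were lower, and the log2 change was -0.95 ± 0.24 (limma adjusted p = 0.111). Without wild type replicate 3 LOGL3 was called at a log2 change of -1.22 (limma adjusted p = 0.0382). It was not when any other array was left out, with limma adjusted p up to 0.342. LOGL10 was at 1504, 1581 and 1600 in wild type and 1412, 1150.1 and 1077 in Epi-df (log2 change -0.37 ± 0.11, limma adjusted p = 0.163).

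Others of the family were higher. LOGL9 was at 926, 651 and 890.3 in wild type and at 1398, 1041 and 2107 in Epi-df. Epi-df replicate 3, the low array of the type-A genes, was the highest here. The log2 change of LOGL9 was 0.83 ± 0.25 (limma adjusted p = 0.171), and it ranged from 0.56 to 1.06 when 1 array was left out. LOGL1 had a log2 change of 0.28 ± 0.11 without overlap (limma adjusted p = 0.301). For LOG itself, known from the upkeep of the shoot meristem, it was -0.25 ± 0.16, with overlap. LOGL3 was singled out after its values were seen.

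Receptor and relay genes stayed close to 0. The cytokinin receptor genes HK3, HK4 and HK5 had log2 changes of -0.06 ± 0.10, -0.01 ± 0.11 and 0.09 ± 0.09. CRL4, a receptor-like kinase gene with a cytokinin-binding domain, was at 141, 120.3 and 147 in wild type and 179, 162 and 195 in Epi-df, the fifth gene without overlap (log2 change 0.35 ± 0.11, limma adjusted p = 0.166). The phosphotransfer protein genes AHP1, AHP2 and PHP5 were at 0.03 ± 0.08, 0.02 ± 0.07 and 0.04 ± 0.13. Genes of cytokinin oxidases, which break the hormone down, had log2 changes of -0.21 ± 0.13 (CKX5), -0.07 ± 0.18 (CKX4), 0.13 ± 0.16 (CKX3) and 0.33 ± 0.16 (CKX11), all with overlap. CKX1 was below the filter, at intensities of 4.16 to 10.1. RR33, which the gene table also lists as OsRRA19, was at 0.18 ± 0.21. Of 4 more type-A genes in the gene table, none had a probe set paired with it alone. The clock genes PRR1, PRR37, PRR73 and PRR95, whose proteins share the receiver domain but lie outside cytokinin signalling, had log2 changes between -0.05 and 0.003.

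**Figure D4:**
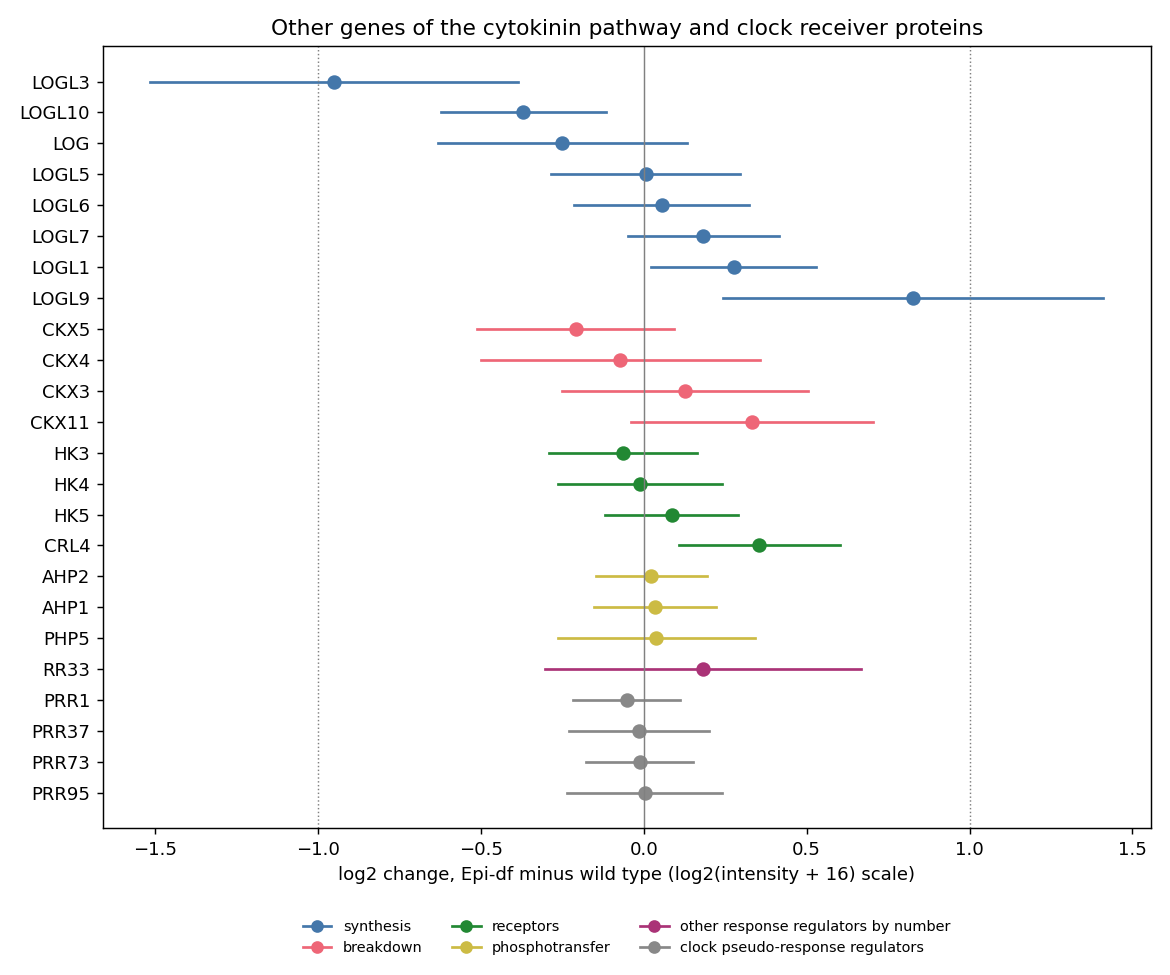
Log2 change, Epi-df minus wild type (x axis), with 95% limma intervals, of the other tested genes of the cytokinin pathway and of 4 clock genes, coloured by role. LOGL3 (-0.95) and LOGL9 (0.83) lie farthest from 0 on either side, and the receptor, phosphotransfer and clock genes lie near 0 apart from CRL4 (0.35).

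Markers of seedling parts were set beside these values. The 9 dividing cell markers were cyclin, CDK and MCM genes. On their mean the top array was Epi-df replicate 2 and the bottom array Epi-df replicate 3, as for RR1 and RR4. Single genes differed: MCM2, MCM4 and MCM5 were lowest in wild type replicate 1 and MCM3 in wild type replicate 3. CDKB2-1 and MCM7 were highest in Epi-df replicate 1. The mean log2 difference of the 9 markers from the wild type mean was -0.13, 0.01 and 0.12 in wild type and 0.37, 0.48 and -0.23 in Epi-df. Unlike RR9, they were above wild type in Epi-df replicates 1 and 2. None of them was called (median log2 change 0.18), and their summed intensity was 5328 to 6081 in wild type and 4965 to 8116.5 in Epi-df. Their part in the type-A values was not tested.

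Leaf markers, with the Rubisco gene RBCS at 23271 to 24975, summed to 57019 to 58370.4 in wild type and 58072 to 68991 in Epi-df. The sums of the 3 root markers were 472 to 620.4 and 597 to 743. Most of each sum was LSI1, at 369 to 662, while LSI2 was below the filter, at 20.65 to 26.26. Leaf signal was thus present in both lines, and root signal rested mostly on LSI1. Within the leaf list, the light-harvesting protein genes CAB2R and LHCP were higher in all Epi-df arrays without passing the call rule, with log2 changes of 0.28 ± 0.06 and 0.57 ± 0.13 (limma adjusted p = 0.0783 and 0.0862). A dimmer probe set of CAB2R stood at 0.64 ± 0.11 (limma adjusted p = 0.0308), under 2-fold. The Rubisco activase gene RCA was at -0.09 ± 0.14, with overlap. The root list went both ways, with the silicon transporter gene LSI1 at 0.44 ± 0.14 without overlap (limma adjusted p = 0.184) and the nitrate transporter gene NRT2.3 at -0.60 ± 0.25 with overlap (limma adjusted p = 0.325). OSH1, a meristem gene of the KNOX type known to raise cytokinin synthesis, was at 13.6 to 30.2 in 5 arrays and at 268 in Epi-df replicate 1. RR5 was the 1 type-A gene with its lowest value in that array, which was the lowest for 18.4% of all tested probe sets. The RR5 value was 1.10-fold below the next lowest, and a link to OSH1 was not tested. The meristem and stem list summed to 285 to 349 in wild type and 385 to 742 in Epi-df. OSH71, another KNOX gene of that list, was at 28.2, 25.9 and 90.6 in wild type and at 233, 135 and 197 in Epi-df. All its Epi-df arrays were above all wild type arrays, with a log2 difference of 1.78 ± 0.36 that did not pass the call rule (limma adjusted p = 0.0605). OSH43 was at -0.15 ± 0.09 with overlap, and OSH1 and OSH6 were below the filter. Flower and pollen markers summed to 1704 to 2159 and 2576 to 3130.1, with MADS16 the 1 called (log2 change 1.33, limma adjusted p = 0.00204). MADS16 was at 618 to 650 in wild type and 1388 to 1734 in Epi-df. The other tested genes of that list had log2 changes of -0.10 to 0.33. MADS15 and MADS58 were below the filter, with MADS58 lower in all Epi-df arrays. Genes matched to the seed list summed to 2512 to 2672 and 2889 to 3147. Most of each sum was the gene matched to GLB1, at 1769 to 2495, which the gene table lists as GLB. It was matched by name only, and whether it is a seed gene was not checked. Its log2 change was 0.34 ± 0.08 without overlap, and GLUA2 was at -0.15 ± 0.10 with overlap. GLUA1, at 19.85 to 53.07, and RP6 were below the filter. No defining marker was listed at 0. Detection calls were not used, so a low value above 0 does not show expression. The part of these lists in the response regulator values was not tested.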

How the data were processed

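Total RNA of 3 wild type and 3 Epi-df samples was labelled with biotin and hybridised to 1 array each, per the labels' protocols. The authors deposited 1 intensity per probe set and array, on a linear scale. It is a MAS5 signal, per the submitters' processing notes. Its version and scaling target are not given in the sources used here. Precision is limited by the number of arrays, and detection calls were not used.

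Sample titles gave the groups and replicate numbers. After 16 was added and log2 taken, the lines were compared with limma (version 3.58.1, R version 4.3.3, eBayes with trend, two-sided, no block) on probe sets whose mean log2 value was at or above the 40th percentile, with Benjamini-Hochberg adjustment over all 34355, after a check on simulated data. The series' design names thresholds of 2-fold and q of 0.05 but no test. All 10 members passed the filter. Gene names are symbols or synonyms of a RefSeq gene table, reached from the platform's annotation, and a gene with several probe sets is given by its brightest one. The members and lists were chosen with earlier results of these data known. The text names all members, of each pathway list the called genes or up to 4 with the highest mean, and the 5 named genes nearest to each of the 2 most variable members. LOGL3, CKX1 and the marker genes named beside their sums, other than OSH1 and MADS16, were chosen after their values were seen. No name of the conjugation list was found. Same-numbered wild type and Epi-df arrays had correlations of their deviations of 0.14, 0.34 and -0.05. For differently numbered arrays they were -0.29 to 0.13, which does not settle whether the numbers pair arrays. As pairing was not known, the main fit had no block and a fit with a replicate block was run as an alternative.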

Additional observations from a re-analysis of the deposited data

How the results depend on the processing

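None of the 10 genes was called under any of the alternatives run (pseudocounts of 1 and 64, weaker and stricter filters, 2 ways of scaling, eBayes without trend or robust, weighted arrays, a replicate block, Storey's q, lower fold thresholds, and each array left out in turn). The filters, the eBayes variants and the replicate block do not alter a gene's log2 change, so its sign could not turn in those fits. Of 169 recomputed changes of single genes, those included, 166 kept their sign and stayed uncalled. The other 3 turned to above 0 when 1 array was left out: RR1 ranged from -0.50 to 0.19 in such fits and RR4 from -0.33 to 0.25, and the cause was not tested. The median of the 10 genes ranged from -0.34 (without Epi-df replicate 2) to -0.076 (without Epi-df replicate 3), and that of the type-A genes from -0.41 to -0.056 in the same fits. Among the other pathway genes the count of calls was 0, or 1 (LOGL3) without wild type replicate 3. Over all probe sets the count of 209 became 319 with the replicate block, 617 with no fold threshold and 496 at 1.5-fold, and 108 to 250 when 1 array was left out. With the replicate block, the lowest adjusted p among the 10 genes was 0.0568 (limma, ORR4). With 3 arrays a group, changes of genes as variable as RR1, RR2, RR4 and RR9 were measured to within wide intervals only. No second probe set of any of the 10 genes could be tried, and RR5 was not among the tested probe sets under the stricter filter.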
